A study of Mus musculus with 12 samples.

Results

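The 45 genes described here encode proteins of the G2 phase and of mitosis: the cyclins and kinases that start it, the spindle checkpoint, the kinetochore, the mitotic kinesins, and the machinery of anaphase and cytokinesis. They were given as a list of mouse symbols and were found in the count table through their Entrez IDs. All 45 were among the 27179 genes of the table and all 45 were among the 13947 genes with enough reads to be tested. For 5 of them (Bub1, Ttk, Ndc80, Cdc25c and Melk) the filter on low counts was met only through the group in which they were highest, and the other 40 met it without that group.

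RNA was sequenced in bulk from the livers of 12 male mice, 3 in each of 4 groups. From before the injection until the end the mice were kept on chow (CD) or on a low-protein diet (LPD). Plasmids were delivered to hepatocytes through the tail vein with a Sleeping Beauty transposase (SB-HTVI): an empty vector (Vec), or human c-MET with ΔN90-β-catenin, a constitutively active β-catenin that lacks its N terminus. Each diet thus had a Vec and a c-MET/β-catenin group, and every liver was taken when the CD c-MET/β-catenin mice reached their end point. The labels give no strain, and the sources name both a mixed 129/Ola and C57BL/6 background for this tumour model and C57/Bl3 mice for tumour work in general, so the strain of these mice is not settled. The LPD c-MET/β-catenin livers were therefore not at their own end point, only some hepatocytes take up plasmid by this route, and the sample titles call the vector mice WT. The CD libraries are titled chow, but their deposited columns are named HPD, a name also used for a high-protein diet in another experiment of the study. Titles and methods were followed here, and CD stands for chow throughout on that ground.

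Entry into mitosis is driven by B-type cyclins bound to Cdk1, exit by the anaphase-promoting complex (APC/C), which with its activator Cdc20 marks cyclins for destruction. Most hepatocytes of an adult liver are quiescent, and mitotic transcripts are scarce there until a stimulus such as resection or a tumour brings cells back into the cycle. Many of these genes are transcribed late in the cycle through 2 promoter elements, the cell cycle genes homology region (CHR), to which the MuvB complex binds, and the CCAAT box, to which NF-Y binds. MuvB represses them in quiescent cells as part of the DREAM complex and activates them in dividing cells together with B-Myb and Foxm1.

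The promoters of 36 of the 45 genes were in the RefSeq table used (GRCm38.p6), as windows from 250 bases before to 50 bases after the transcription start. The CHR was searched as TTTGAA and as TTTAAA and the NF-Y site as CCAAT, each on both strands. TTTAAA reads the same on both strands, and a CHR and a CCAAT can share bases where they adjoin, which none does in the stretches printed below. TTTGAA was found in 27 of the 36 promoters (75%), against 18.1% of all 27025 promoters of the table and 12.2% of the 10806 promoters of genes tested here. TTTAAA was found in 9 (25%, against 13.2% of all and 9.13% of tested), and either form in 30 (83.3%, against 27.8% and 19.6%). CCAAT was found in 26 (72.2%, against 37.9% and 38.9%), and at least 2 copies of it in 17 (47.2%, against 12.2% and 14.8%). Either CHR form together with at least 2 CCAAT copies stood in 16 of the 36 promoters (44.4%), against 3.25% of all and 2.81% of tested promoters. These are matches of letters, given as a description.

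**Figure D1:**
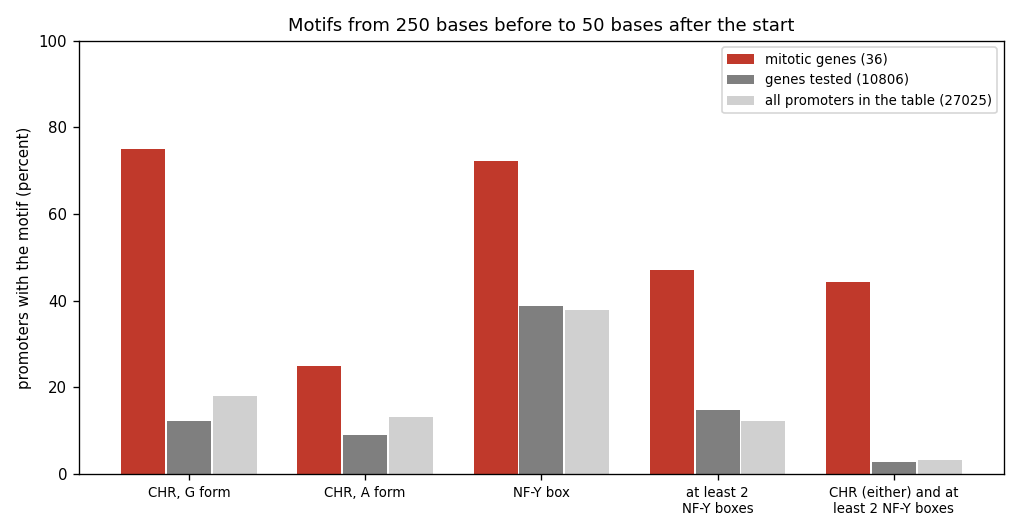
Share of promoters (percent, y axis) that hold the 2 forms of the CHR (G form and A form), the NF-Y box, at least 2 NF-Y boxes, or a CHR with at least 2 NF-Y boxes, for the 36 mitotic genes with a promoter in the table (red), the 10806 genes tested (dark grey) and all 27025 promoters (light grey). The red bars are the highest for each motif, and for the combination they stand at 44.4% against 2.81% and 3.25%.

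The 7 promoters below, from 150 bases before to 30 bases after the start, belong to genes described further on. Each is written 5′ to 3′ on the strand of its gene, in GRCm38.p6 coordinates, with the matches to both CHR forms and to the NF-Y box in capitals. A box on the other strand appears as its reverse complement, which for CCAAT reads ATTGG.
Ccnb1 (cyclin B1), chr13:100786457-100786636, minus strand: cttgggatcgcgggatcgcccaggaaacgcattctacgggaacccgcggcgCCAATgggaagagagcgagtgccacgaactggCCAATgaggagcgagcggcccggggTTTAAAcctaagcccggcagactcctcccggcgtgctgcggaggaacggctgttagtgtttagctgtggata
Cdk1 (its kinase), chr10:69352883-69353062, minus strand: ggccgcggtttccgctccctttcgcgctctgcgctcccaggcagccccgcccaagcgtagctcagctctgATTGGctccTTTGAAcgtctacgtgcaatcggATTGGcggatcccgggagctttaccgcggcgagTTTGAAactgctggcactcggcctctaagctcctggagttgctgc
Plk1 (polo-like kinase 1), chr7:122159285-122159464, plus strand: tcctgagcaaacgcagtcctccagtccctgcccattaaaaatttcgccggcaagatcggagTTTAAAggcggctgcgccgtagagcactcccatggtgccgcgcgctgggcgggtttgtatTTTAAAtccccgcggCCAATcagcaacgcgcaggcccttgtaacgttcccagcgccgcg
Aurka (Aurora A kinase), chr2:172370541-172370720, minus strand: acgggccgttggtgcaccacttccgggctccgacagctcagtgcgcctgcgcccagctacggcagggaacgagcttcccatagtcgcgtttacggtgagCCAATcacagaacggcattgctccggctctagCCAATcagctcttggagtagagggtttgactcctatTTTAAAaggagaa
Cdc20 (anaphase-promoting complex activator), chr4:118437314-118437493, minus strand: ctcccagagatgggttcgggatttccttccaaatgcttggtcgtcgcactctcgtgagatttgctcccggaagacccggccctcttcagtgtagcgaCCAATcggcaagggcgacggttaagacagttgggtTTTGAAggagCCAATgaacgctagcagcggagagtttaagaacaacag
Top2a (topoisomerase IIα), chr11:99024160-99024339, minus strand: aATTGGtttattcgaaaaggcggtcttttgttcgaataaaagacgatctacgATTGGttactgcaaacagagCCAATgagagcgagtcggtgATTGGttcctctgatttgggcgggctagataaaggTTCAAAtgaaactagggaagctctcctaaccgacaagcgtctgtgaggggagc
Birc5 (survivin), chr11:117849087-117849266, plus strand: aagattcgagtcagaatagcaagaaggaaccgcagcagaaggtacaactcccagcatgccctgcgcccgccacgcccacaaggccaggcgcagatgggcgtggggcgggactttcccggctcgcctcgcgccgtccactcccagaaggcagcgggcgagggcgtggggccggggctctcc
The stretch of Ccnb1 holds 1 CHR 42 bases before the start, behind 2 CCAAT copies, and that of Cdc20 holds 1 CHR between 2 CCAAT copies. The stretch of Top2a holds 4 CCAAT copies and 1 CHR, and that of Plk1 2 CHR of the TTTAAA form and 1 CCAAT. Birc5 has none of the 3 in the printed stretch, and its only match in the longer window is a TTTAAA that starts 220 bases before the start of transcription.

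Total counts per library ran from 19476209 to 31990267. The column headers of the deposited table carry dataset numbers that fall into 3 runs, of which 1 holds CD c-MET/β-catenin mice 1 and 2, another CD Vec mice 1 and 2 with LPD Vec mouse 1, and the last the other 7 libraries; what the numbers stand for is not stated. The labels name hepatocytes as the cell type, but the tissue is liver. All 8 hepatocyte markers were present in every library, with a mean for albumin (Alb) of 61800 to 74340 CPM in the 4 groups, and markers of macrophages, stellate, endothelial and bile duct cells were present as well. In such bulk RNA, fewer dividing cells and less mitotic RNA per cell cannot be told apart. Levels are CPM, that is counts in proportion to the total of their library after scaling with the trimmed mean of M values (TMM), and log2 fold changes, standard errors (SE) and adjusted p-values come from edgeR's quasi-likelihood test across all 13947 genes.

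Summed over the 45 genes, the mitotic level was 41.6, 35.0 and 73.6 CPM in CD Vec mice 1, 2 and 3 and 51.8, 44.6 and 38.7 CPM in the LPD Vec mice. It was 485, 425 and 643 CPM in the CD c-MET/β-catenin mice, and 159, 194 and 86.9 CPM in the LPD c-MET/β-catenin mice. The order of the groups was therefore CD c-MET/β-catenin, LPD c-MET/β-catenin and then both Vec groups, whose sums overlapped. Of the 45 genes, 44 had their highest group mean in CD c-MET/β-catenin and 44 their second highest in LPD c-MET/β-catenin. In 43 genes every CD c-MET/β-catenin mouse was above all 9 other mice, against 13.3% of all genes tested. In 31 genes all LPD c-MET/β-catenin mice lay between the Vec mice of both diets and the CD c-MET/β-catenin mice, against 2.49% of all genes tested. The 43 include all 5 genes that met the filter only through CD c-MET/β-catenin, and the 31 include some of them. Single mice moved many of the genes together: CD Vec mouse 3 had the highest value of its group for 42 genes, CD c-MET/β-catenin mouse 3 for 39, and LPD c-MET/β-catenin mouse 3 the lowest of its group for 41.

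**Figure D2:**
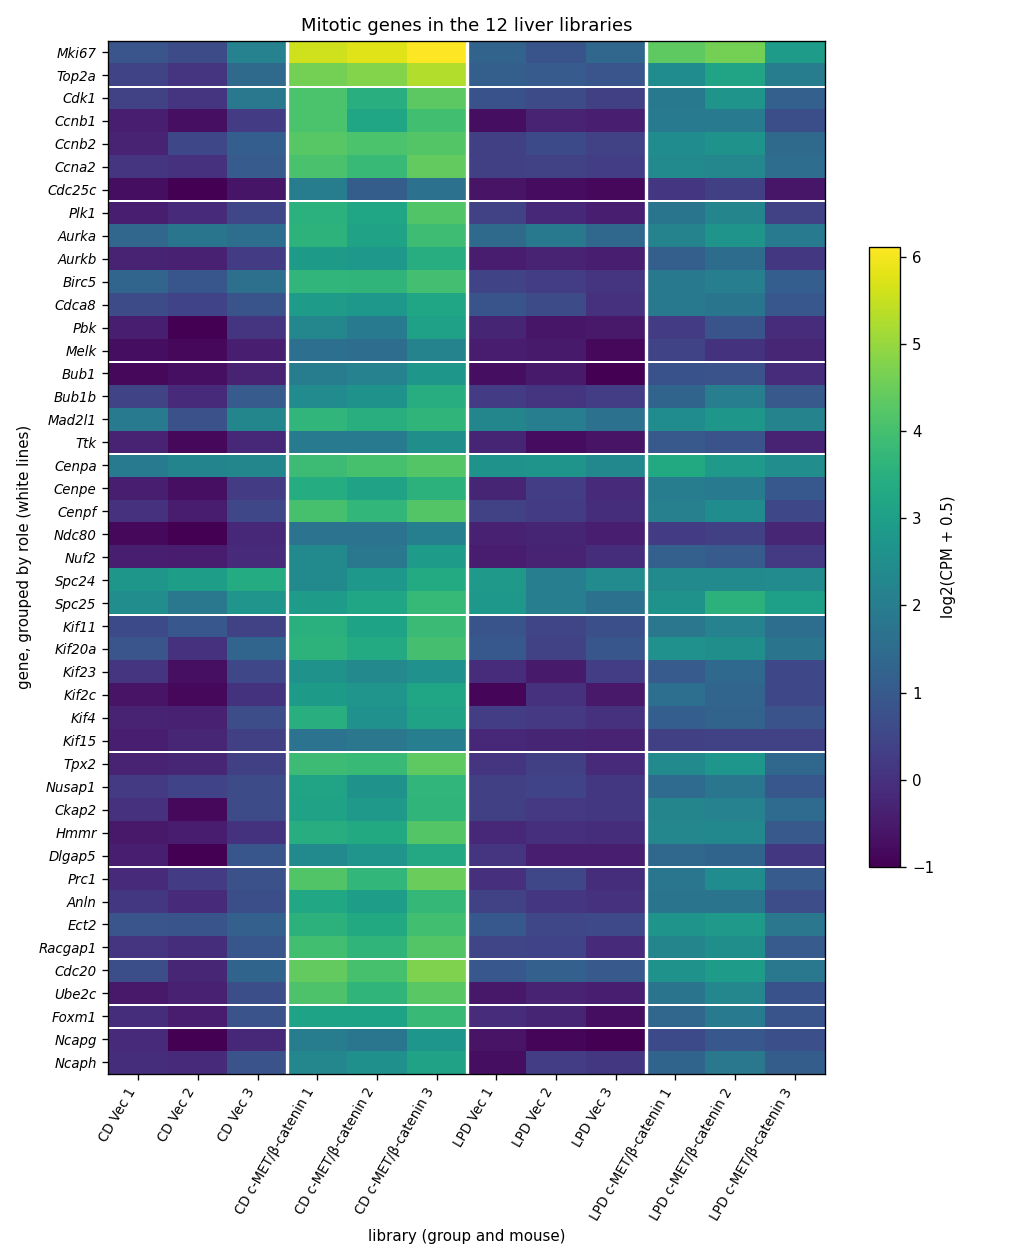
Level of the 45 mitotic genes (rows, grouped by role) in the 12 libraries (columns, 3 mice per group), as log2(CPM + 0.5) on a colour scale from dark (low) to yellow (high). The 3 CD c-MET/β-catenin columns are the brightest for nearly all rows, the LPD c-MET/β-catenin columns are intermediate with mouse 3 darkest, and in the row of Spc24 the values of both CD groups overlap.

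On CD, nearly the whole list was higher with c-MET/β-catenin. Of the 45 genes, 43 rose and none fell, against 18.7% of all genes tested that rose. The median log2 fold change of the 45 was 4.02, with a range from -0.19 (Spc24) to 5.28 (Hmmr), while the median of all genes tested was -0.010. The groups did not overlap for 44 of the 45 genes, against 22.2% of all genes with CD c-MET/β-catenin wholly above CD Vec. Large changes were common among them: 36 of the 45 (80%) rose at least 8-fold and 23 (51.1%) at least 16-fold, against 3.17% and 1.72% of all genes tested. Without the 5 genes that met the filter only through CD c-MET/β-catenin, 38 of 40 rose. The median, the 44 genes without overlap and the fold counts include these 5. Their reads in CD Vec were few, from 0 to 7 per library. Bub1, Ndc80, Cdc25c and Melk are among the 23 at 16-fold or more, and Ttk, at 15.7-fold, is among the 36. With the header runs as a term in the model, 40 of the 43 kept an adjusted p under 0.05, but only mouse 3 of CD c-MET/β-catenin shares a run with other groups. The 1 run that holds all groups has 1 CD Vec and 1 CD c-MET/β-catenin mouse (mouse 3 of each, each the highest of its group for most of the genes), so it gives no test on CD.

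Mki67 (Entrez 17345), which encodes the proliferation antigen Ki-67 that coats mitotic chromosomes, stood at 1.33, 1.08 and 3.96 CPM in CD Vec and at 48.0, 53.8 and 68.5 CPM in CD c-MET/β-catenin. The groups were far apart, and the log2 fold change was 4.73 ± 0.53 (SE, n = 3 per group, edgeR adjusted p = 9.72e-05). In reads, this is 26, 19 and 76 against 1662, 1319 and 1830. Top2a, the topoisomerase that untangles sister chromatids and whose promoter holds the 4 CCAAT copies shown above, stood at 0.866, 0.569 and 2.24 CPM against 24.3, 27.2 and 38.7 CPM, a log2 fold change of 4.60 ± 0.46 (edgeR adjusted p = 4e-05). In both genes mouse 3 was the highest of its group.

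All 5 genes of the cyclin and Cdk1 group rose, from 3.38 (Cdk1) to 5.23 (Ccnb1) on the log2 scale. Ccnb1, cyclin B1, was at 0.255, 0.114 and 0.677 CPM in CD Vec, which is 5, 2 and 13 reads, and at 16.6, 8.81 and 14.9 CPM in CD c-MET/β-catenin (log2 fold change 5.23 ± 0.57, edgeR adjusted p = 6.83e-05). Cdk1, its catalytic partner, was at 0.815, 0.569 and 3.07 CPM against 16.5, 10.7 and 19.4 CPM (3.38 ± 0.58, edgeR adjusted p = 0.00108), so that CD Vec mouse 3 was well above the other CD Vec mice. Cdc25c, the phosphatase that removes the inhibitory phosphates of Cdk1, had 2, 0 and 3 reads in CD Vec and 121, 40 and 70 in CD c-MET/β-catenin. Pooled over the mice and divided by total counts its ratio was 36.9, with an interval of 15.6 to 115 (exact, 95%) that covers counting error only. Ccnb2 and Ccna2, cyclins B2 and A2, rose by 4.18 and 4.25 (log2).

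All 7 mitotic kinases and partners of the chromosomal passenger complex rose, from 2.21 (Aurka) to 4.55 (Plk1) on the log2 scale. Plk1, which acts in centrosome maturation and spindle formation, was at 0.255, 0.398 and 0.937 CPM against 11.2, 8.73 and 17.8 CPM, a log2 fold change of 4.55 ± 0.64 (edgeR adjusted p = 0.000322). Aurkb, the kinase of the passenger complex, was at 0.306, 0.284 and 0.677 CPM against 6.85, 6.36 and 10.2 CPM (4.19 ± 0.49, edgeR adjusted p = 8.99e-05). Birc5 (survivin), a passenger subunit that docks the complex on the centromere, started higher, at 1.99, 1.37 and 2.60 CPM, and stood at 12.3, 12.1 and 15.3 CPM with the oncogenes (2.73 ± 0.32, edgeR adjusted p = 8.99e-05). The groups of all 3 were separate. Cdca8 (borealin) rose by 2.76, and the kinases Pbk and Melk rose by 4.18 and 4.35 (log2).

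The 4 spindle checkpoint genes, whose products delay anaphase until all chromosomes are attached, rose by 1.997 (Mad2l1) to 4.79 (Bub1) on the log2 scale. Bub1b (BubR1) was at 0.866, 0.398 and 1.56 CPM against 4.85, 5.79 and 10.3 CPM (2.87 ± 0.48, edgeR adjusted p = 0.000764). Ttk (Mps1), the kinase that starts checkpoint signalling, was at 0.306, 0.0569 and 0.364 CPM, or 6, 1 and 7 reads, against 3.21, 3.30 and 5.35 CPM, and met the filter only through the latter group, as did Bub1. Bub1b and Ttk were separate between the groups, at low levels in CD Vec.

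The kinetochore was the one role in which genes did not move together. Cenpa, the histone H3 variant that marks the centromere, was at 3.31, 4.09 and 4.32 CPM in CD Vec and 14.2, 15.8 and 17.9 CPM in CD c-MET/β-catenin, a rise of 2.03 ± 0.23 (log2, edgeR adjusted p = 8.94e-05). Ndc80, the subunit through which kinetochores hold microtubules, had 1, 0 and 7 reads in CD Vec against 95, 68 and 98 and met the filter only through the latter group, and Nuf2, its partner, rose by 4.03. Cenpe, a kinetochore motor, and Cenpf rose by 4.79 and 4.77.

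Spc24 and Spc25 form the other end of the same Ndc80 complex, and neither passed the test. Spc24 was at 6.32, 7.45 and 9.95 CPM in CD Vec and at 4.82, 6.36 and 9.66 CPM in CD c-MET/β-catenin (-0.19 ± 0.28, edgeR adjusted p = 0.638), with overlapping groups. Its sign turned to 0.315 with the header runs in the model and to 0.099 when only total counts were used for scaling, also short of the threshold. Spc25 was at 5.09, 3.13 and 5.99 CPM against 7.08, 8.53 and 13.0 CPM, so the groups were separate by little, with a log2 fold change of 1.01 ± 0.37 (edgeR adjusted p = 0.054). Per kilobase of annotated exon, Spc24 and Spc25 had the highest levels of the 45 genes in CD Vec, at 3.07 and 1.49 CPM per kb, where Ndc80 stood at 0.0213. In CD c-MET/β-catenin the highest were Ccnb2 and Cdc20, at 11.6 and 11.2 CPM per kb. The promoter window of Spc25 holds a TTTGAA and 2 CCAAT copies, and that of Spc24 was not in the table.

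All 6 kinesins rose, from 2.76 (Kif15) to 4.83 (Kif2c) on the log2 scale. Kif11 (Eg5), which pushes the spindle poles apart, was at 1.02, 1.42 and 0.833 CPM against 10.98, 8.16 and 13.7 CPM, a rise of 3.33 ± 0.30 and the lowest adjusted p of the list (edgeR, 2.75e-05). Kif20a, a kinesin of the central spindle, was at 1.33, 0.512 and 1.98 CPM against 11.5, 9.67 and 15.8 CPM (3.26 ± 0.43, edgeR adjusted p = 0.000196). Its exons share 29.3% of their bases with Cdc23 on the opposite strand, as those of Ube2c share 22.8% with Tnnc2 and those of Kif4 15.1% with Pdzd11, and whether the counting used strand is not stated.

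The 5 spindle assembly genes and the 4 cytokinesis genes rose as well. Hmmr, a spindle-associated hyaluronan receptor, had the largest log2 fold change of the 45, 5.28 ± 0.51, from 0.204, 0.227 and 0.521 CPM to 10.3, 9.47 and 17.9 CPM (edgeR adjusted p = 3.64e-05). Tpx2, which brings Aurora A to the spindle, was at 0.306, 0.341 and 0.781 CPM against 14.1, 13.6 and 19.8 CPM (5.03 ± 0.46, edgeR adjusted p = 2.76e-05). Both had their highest value in CD c-MET/β-catenin mouse 3. Prc1, which bundles the microtubules of the central spindle, was at 0.407, 0.682 and 1.198 CPM against 17.7, 12.7 and 22.0 CPM (4.51 ± 0.49, edgeR adjusted p = 6.51e-05), and Ect2, the exchange factor that starts the cleavage furrow, at 1.33, 1.31 and 1.77 CPM against 11.3, 9.51 and 15.2 CPM (3.03 ± 0.33, edgeR adjusted p = 6.68e-05). In both the groups were wide apart.

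Cdc20, the APC/C activator with a CHR between 2 CCAAT copies, was at 1.12, 0.341 and 1.93 CPM against 20.8, 15.9 and 25.98 CPM (4.19 ± 0.46, edgeR adjusted p = 7.18e-05). Ube2c, the ubiquitin-conjugating enzyme of the APC/C, was at 0.204, 0.284 and 1.15 CPM against 17.01, 11.95 and 19.02 CPM (4.86 ± 0.58, edgeR adjusted p = 0.000109). CD Vec mouse 3 was again the highest control. Foxm1, the transcription factor of the late cell cycle, was at 0.459, 0.227 and 1.25 CPM against 8.26, 8.16 and 13.3 CPM (3.91 ± 0.55, edgeR adjusted p = 0.000285), and Ncapg, a condensin subunit, at 0.407, 0 and 0.364 CPM against 3.47, 2.98 and 6.21 CPM (3.98 ± 0.64, edgeR adjusted p = 0.000637).

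**Figure D3:**
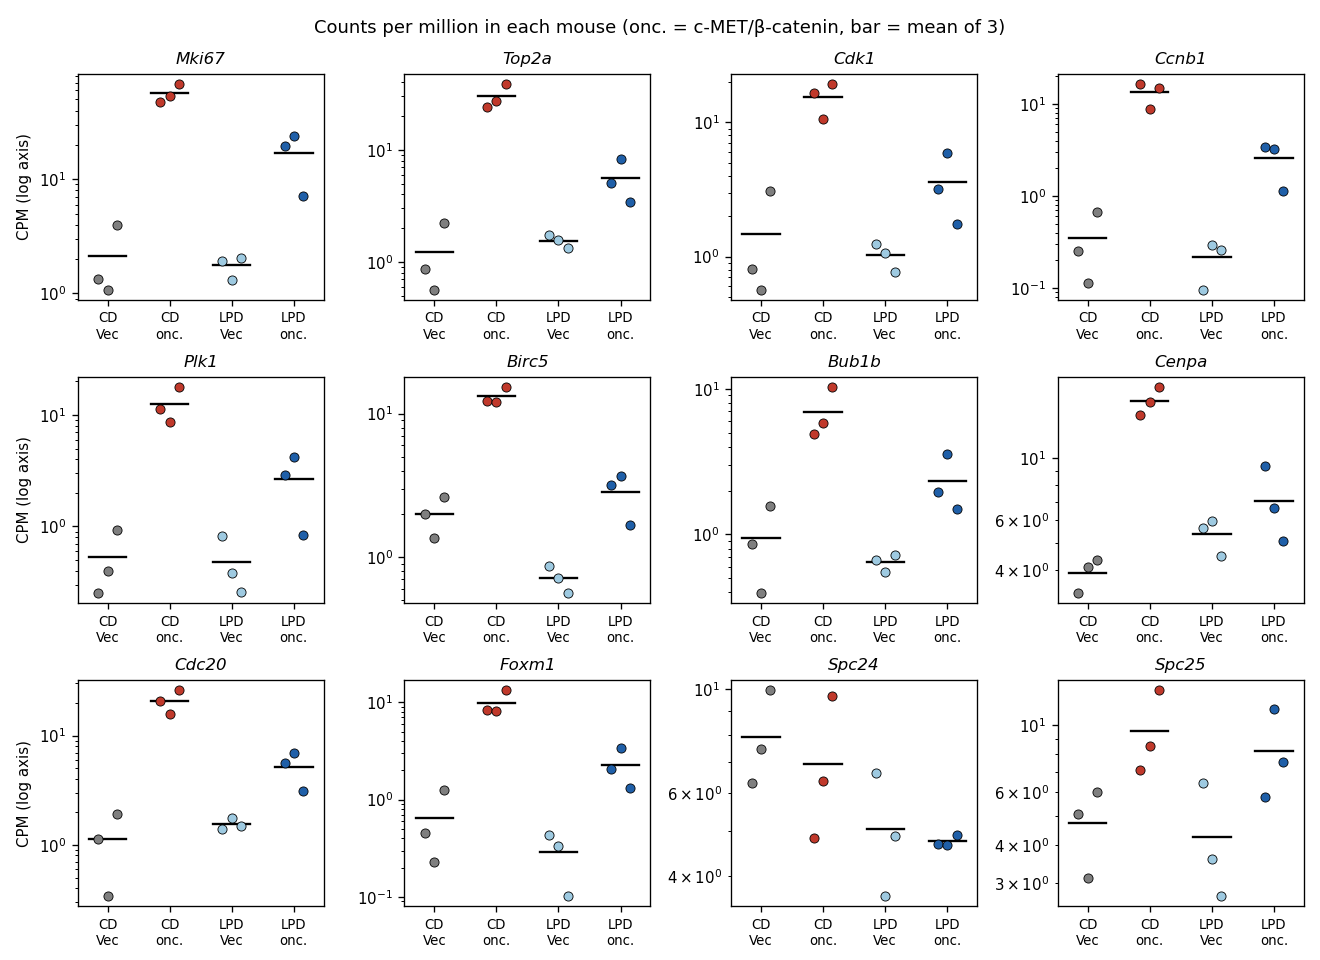
CPM (log y axis, its range set per panel) of 12 of the genes in each mouse of the 4 groups, with the mean of 3 mice as a bar (onc., c-MET/β-catenin). For 11 of the 12 genes the red points (CD c-MET/β-catenin) lie above all grey points (CD Vec), and Spc24 is the one in which they overlap.

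On LPD, the same comparison was smaller and fewer genes passed. Of the 45 genes, 16 rose and none fell, against 1.15% of all genes tested that rose, and 41 had an unadjusted p under 0.05, against 11.1% of all genes. The median log2 fold change was 2.10, with a range from -0.08 (Spc24) to 4.16 (Ncapg), and LPD c-MET/β-catenin lay wholly above LPD Vec for 40 genes, against 13.5% of all genes. The 16 were Mki67, the cyclins Ccnb1, Ccnb2 and Ccna2, Aurkb and Birc5 of the passenger complex, Cenpe, Kif11, Tpx2, Hmmr, Prc1, Ect2, Racgap1, Ube2c, Foxm1 and Ncapg. None of the 4 checkpoint genes passed. None of the 16 calls held in all 12 fits that left out 1 library, and the count was 1, 1 and 0 without LPD Vec mouse 1, 2 or 3, 8 and 4 when LPD c-MET/β-catenin mouse 1 or 2 was left out, and 27 when LPD c-MET/β-catenin mouse 3 was. It was 5 with the header runs as a term, where the median over the 45 was 1.85, 8 with the replicate number as a block and 33 by DESeq2.

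Mki67 was at 1.92, 1.31 and 2.05 CPM in LPD Vec and at 19.6, 24 and 7.08 CPM in LPD c-MET/β-catenin (log2 fold change 3.27 ± 0.52, edgeR adjusted p = 0.0105). Ccnb1 was at 0.0960, 0.296 and 0.256 CPM against 3.37, 3.23 and 1.14 CPM (3.53 ± 0.61, edgeR adjusted p = 0.0143), and Foxm1 at 0.432, 0.338 and 0.103 CPM against 2.05, 3.37 and 1.31 CPM (2.92 ± 0.60, edgeR adjusted p = 0.0373). In each of these LPD c-MET/β-catenin mouse 3 was the lowest of its group and still above every LPD Vec mouse. The lowest adjusted p, 0.00788 by edgeR, belonged to Tpx2 (0.576, 0.760 and 0.410 CPM against 4.69, 6.11 and 2.14 CPM) and to Ect2 (1.44, 0.929 and 0.974 CPM against 5.86, 6.74 and 3.02 CPM). The largest log2 fold change, 4.16 ± 0.81 for Ncapg (edgeR adjusted p = 0.0295), rests on 3, 1 and 0 reads in LPD Vec against 21, 40 and 27, a pooled ratio of 21.2 with a counting interval of 7.98 to 79.5.

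The other genes that rose on CD did not pass on LPD. Top2a was at 1.73, 1.56 and 1.33 CPM in LPD Vec and 5.03, 8.32 and 3.46 CPM in LPD c-MET/β-catenin (1.86 ± 0.43, edgeR adjusted p = 0.061), and Plk1 at 0.816, 0.380 and 0.256 CPM against 2.88, 4.21 and 0.831 CPM (2.44 ± 0.64, edgeR adjusted p = 0.099). Both groups were separate in these genes, in Plk1 by a narrow gap between LPD Vec mouse 1 and LPD c-MET/β-catenin mouse 3. Cdc20 was at 1.39, 1.77 and 1.49 CPM against 5.62, 6.91 and 3.11 CPM (1.75 ± 0.43, edgeR adjusted p = 0.0786), and Cdk1 at 1.25, 1.06 and 0.769 CPM against 3.18, 5.97 and 1.75 CPM (1.83 ± 0.59, edgeR adjusted p = 0.21). Cenpa was at 5.61, 5.96 and 4.46 CPM against 9.38, 6.67 and 5.07 CPM, with overlapping groups and a log2 fold change of 0.39 ± 0.23 (edgeR adjusted p = 0.594). Cdc25c had 3, 2 and 1 reads in LPD Vec against 12, 22 and 4, a pooled ratio of 6.10 with a counting interval of 2.56 to 17.7. The comparison on LPD shares no mouse with the comparison on CD.

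**Figure D4:**
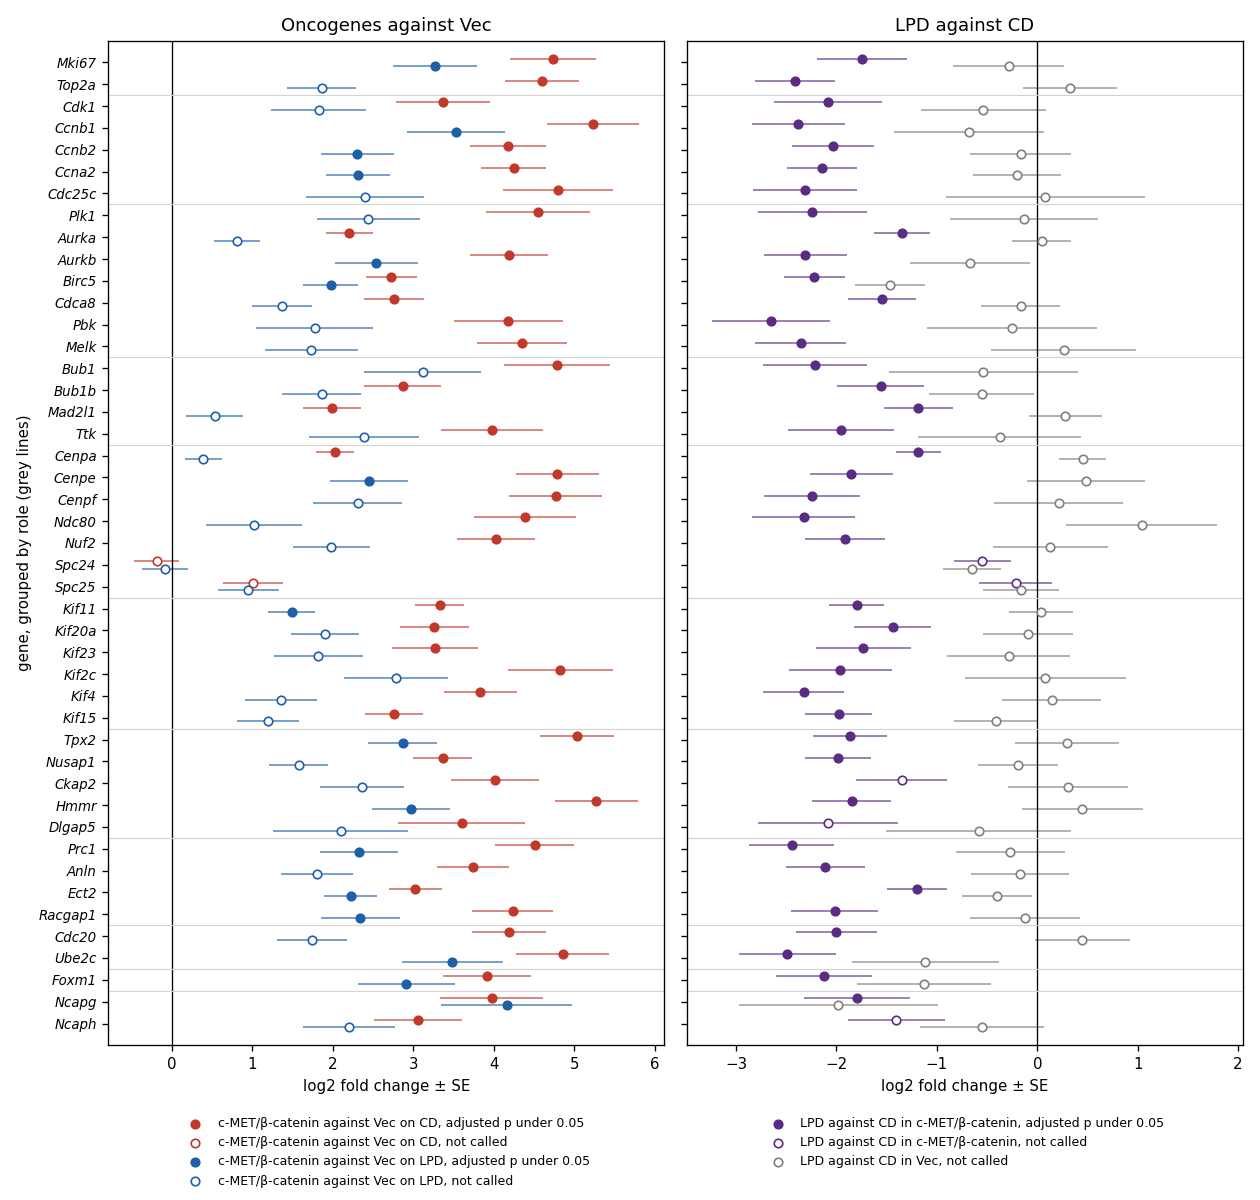
Log2 fold change ± SE of the 45 genes, grouped by role: left, the oncogenes against Vec on CD (red) and on LPD (blue); right, LPD against CD in c-MET/β-catenin livers (purple) and in Vec livers (grey). Filled points have an adjusted p under 0.05: 43 red, 16 blue, 40 purple and no grey point is filled, and Spc24 and Spc25 are unfilled throughout.

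Between the diets, the c-MET/β-catenin livers differed in nearly all of these genes. In LPD c-MET/β-catenin livers 40 of the 45 genes were lower than in CD c-MET/β-catenin livers and none was higher, against 11.3% of all genes tested that were lower. The fitted change was below 0 for all 45, with a median of -1.98 and a range from -2.66 (Pbk) to -0.21 (Spc25), and LPD lay wholly below CD for 43 genes, against 20.1% of all genes. The 5 that did not pass were Spc24, Spc25, Ckap2, Dlgap5 and Ncaph. The mean level on LPD was 15.5% (Pbk) to 86.0% (Spc25) of that on CD, with a median of 25.2%. Without the 5 genes that met the filter only through CD c-MET/β-catenin, 35 of 40 were lower. The median and the 43 genes wholly below include these 5. With the header runs as a term the count was 28 and the median log2 fold change over the 45 was -2.33, where the comparison rests on CD c-MET/β-catenin mouse 3, the mouse with the highest mitotic sum and the only one of its group in a run with LPD mice. Left-out libraries gave counts from 30 (without LPD c-MET/β-catenin mouse 3) to 43. Each mouse of this comparison also served in 1 of the 2 comparisons above, so the 3 are not independent.

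Pbk, a kinase of mitotic cells, was at 4.42, 3.30 and 7.86 CPM on CD and 0.684, 1.30 and 0.437 CPM on LPD (log2 fold change -2.66 ± 0.59, edgeR adjusted p = 0.0089). Ube2c fell from 17.01, 11.95 and 19.02 CPM to 2.83, 4.42 and 1.22 CPM (-2.49 ± 0.48, edgeR adjusted p = 0.00496), and Prc1 from 17.7, 12.7 and 22.0 CPM to 2.93, 5.02 and 1.57 CPM (-2.45 ± 0.42, edgeR adjusted p = 0.00258). For these 3 genes the LPD level was 15.5%, 17.7% and 18.2% of the CD level. Birc5 had the lowest adjusted p of the list (edgeR, 0.000886), with 3.18, 3.65 and 1.66 CPM on LPD against 12.3, 12.1 and 15.3 CPM on CD (-2.22 ± 0.30). The log2 fold change was -2.42 for Top2a, -2.38 for Ccnb1, -2.33 for both Ndc80 and Kif4, -2.24 for Plk1, -2.13 for Foxm1, -2.09 for Cdk1 and -1.74 for Mki67, and Cdc20 was 4-fold lower in the fit. The smaller falls were those of Mad2l1 and Cenpa (-1.18 each), Ect2 (-1.201) and Aurka (-1.35), whose LPD levels were 43.9%, 44.0%, 43.4% and 39.2% of the CD level.

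Between the diets in Vec livers, none of the 45 genes passed by edgeR, against 0.308% of all genes tested that changed in either direction. An unadjusted p under 0.05 was reached by 2, Birc5 and Spc24, against 9.87% of all genes, and DESeq2 called 1, Birc5. The median log2 fold change was -0.17, with a range from -1.98 (Ncapg, on 3, 1 and 0 reads against 8, 0 and 7) to 1.04 (Ndc80, on 6, 8 and 5 reads against 1, 0 and 7), and Kif11 was nearest to 0 (0.04 ± 0.32, edgeR adjusted p = 0.986). The Vec groups did not overlap for 2 of the 45 genes, Birc5 and Cenpa, against 17.2% of all genes. Birc5 was at 0.864, 0.718 and 0.564 CPM in LPD Vec and at 1.99, 1.37 and 2.60 CPM in CD Vec (-1.47 ± 0.35, edgeR adjusted p = 0.0957 and DESeq2 adjusted p = 0.00933). Cenpa was higher on LPD, at 5.61, 5.96 and 4.46 CPM against 3.31, 4.09 and 4.32 CPM (0.45 ± 0.23, edgeR adjusted p = 0.576). Spc24 was at 6.62, 3.63 and 4.87 CPM against 6.32, 7.45 and 9.95 CPM (-0.65 ± 0.29, edgeR adjusted p = 0.484). Without CD Vec mouse 3, whose mitotic sum was the highest of the Vec mice, the median over the 45 genes was 0.447, and no gene passed.

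The interaction term asks whether the oncogene fold change differed between the diets, as the fold change on LPD minus that on CD. It was below 0 for 43 of the 45 genes, with a median of -1.67, and 27 had an unadjusted p under 0.05, against 25.8% of all genes in either direction. After adjustment 6 genes passed, all below 0, against 4.42% of all genes tested. Of these, 5 met the filter on low counts without the CD c-MET/β-catenin libraries: Top2a (-2.74 ± 0.61, edgeR adjusted p = 0.021), Kif4 (-2.47 ± 0.64, 0.0347), Cdc20 (-2.45 ± 0.62, 0.0328), Kif11 (-1.84 ± 0.42, 0.0219) and Cenpa (-1.64 ± 0.32, 0.0133). The other was Ndc80 (-3.37 ± 0.91), which met the filter only through the group in which it is high, so its call is not support for a difference. The 5 are a topoisomerase, a chromosome-bound kinesin (Kif4), an APC/C activator, a spindle kinesin (Kif11) and the centromere histone Cenpa. Of the 45, 2 were fitted above 0, Ncapg (0.19 ± 0.83) and Spc24 (0.10 ± 0.41). The fitted term nearest to 0 belonged to Spc25 (-0.05 ± 0.53).

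The 6 calls depend on single mice of all groups and on the model. The count was 15 without CD Vec mouse 3, and 2 when LPD Vec mouse 1, 2 or 3 or LPD c-MET/β-catenin mouse 1 or 3 was left out. It was 3 without CD Vec mouse 1 or CD c-MET/β-catenin mouse 1, 19 by DESeq2 and 0 with the header runs as a term, where the median over the 45 was -1.82. Cenpa alone kept its call in all 12 fits that left out 1 library, with an adjusted p of at most 0.0454 in them. Its term of -1.64 is the diet difference with the oncogenes (-1.18) less that between the Vec groups (0.45).

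The genes around the mitotic core were counted in 8 further lists. In each, the counts on CD stand against the 18.7% of all genes that rose, and those for LPD against CD in c-MET/β-catenin livers against the 11.3% that were lower. Of 16 cohesin and condensin genes tested, 11 rose on CD and 10 were lower on LPD than on CD. The highest log2 fold change on CD was that of Sgo1, the shugoshin that protects centromeric cohesin (0.102, 0 and 0.312 CPM against 2.31, 1.999 and 4.42 CPM, 4.32, edgeR adjusted p = 0.00193), and the lowest that of Stag2, a cohesin subunit of all cell cycle phases (-0.17, edgeR adjusted p = 0.364). Of 32 other kinetochore and centromere genes, 22 rose, 1 fell and 16 were lower on LPD. They ranged from 4.54 for Ska1, which couples kinetochores to shrinking microtubules (edgeR adjusted p = 0.00387, with 0 CPM in CD Vec mice 1 and 2), to -0.91 for Mis12 (edgeR adjusted p = 0.0221).

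Of 18 genes of replication licensing and S phase, 12 rose, 1 fell and 12 were lower on LPD, with a median of 0.807 on CD against the 4.02 of the mitotic genes. Gins2, of the replicative helicase, rose by 2.89 (edgeR adjusted p = 0.000931). Mcm10, a replication initiation factor, went the other way. It was at 96.5, 335 and 149 CPM in CD Vec and 17.6, 28.8 and 23.5 CPM in CD c-MET/β-catenin, and at 84.8, 91.9 and 110 CPM in LPD Vec and 127, 74.4 and 89.0 CPM in LPD c-MET/β-catenin. The CD c-MET/β-catenin mice were below all others, with a fall of 3.06 on CD (edgeR adjusted p = 0.000265) and a level 2.06 higher on LPD than on CD in c-MET/β-catenin livers (edgeR adjusted p = 0.00507).

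Of 8 genes that control G2/M entry, 5 rose on CD and 3 were lower on LPD. They ran from 3.20 for Pkmyt1, an inhibitory kinase of Cdk1 (edgeR adjusted p = 0.000599), to -0.38 for Wee1, another inhibitory kinase of Cdk1 (edgeR adjusted p = 0.435). Of 8 CDK inhibitors, 6 rose and 4 were lower on LPD. Cdkn1a (p21) rose by 4.81 (edgeR adjusted p = 0.00214), from 2.39, 1.31 and 6.98 CPM to 242, 22.8 and 36.0 CPM, so that CD c-MET/β-catenin mouse 1 carried most of the mean, and Cdkn1b (p27) had 0.14 (edgeR adjusted p = 0.418). Cdkn3, a phosphatase of Cdk1 and Cdk2 named among the inhibitors, was the member that also passed on LPD (2.81, edgeR adjusted p = 0.0195).

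The other 3 lists held smaller shares of calls on CD. Of 10 genes listed as G1 cyclins and CDKs, which include the phosphatases Cdc25a and Cdc25b, 3 rose and 2 were lower on LPD. They ran from 2.25 for Cdc25b (edgeR adjusted p = 0.000336) to -0.36 for Ccnd3, cyclin D3 (edgeR adjusted p = 0.107). Cdc25b, neither a cyclin nor a CDK, was 1 of the 3 and 1 of the 2. Of 18 subunits of DREAM, MuvB and the E2F family, 4 rose, 2 fell and 3 were lower on LPD. Mybl2 (B-Myb), which joins MuvB in dividing cells, rose by 2.40 (edgeR adjusted p = 0.00324), and Rbl2 (p130), the DREAM subunit of quiescent cells, fell by 0.765 (edgeR adjusted p = 0.00676) and was 0.652 higher on LPD than on CD in c-MET/β-catenin livers (edgeR adjusted p = 0.0259). Of 17 APC/C genes, that is subunits, the activator Fzr1, the enzyme Ube2s and an inhibitor, 2 rose, 1 fell and 2 were lower on LPD. They ran from 1.22 for Fbxo5 (Emi1), an APC/C inhibitor (edgeR adjusted p = 0.00344), to -0.51 for the subunit Anapc13 (edgeR adjusted p = 0.023). Fzr1 was the other that rose (0.590, edgeR adjusted p = 0.00656) and was also lower on LPD (-0.708, edgeR adjusted p = 0.00521). On LPD, c-MET/β-catenin against Vec gave 1 call each in the CDK inhibitors, the cohesin and condensin list and the other kinetochore list, and none in the other 5, where an unadjusted p under 0.05 was reached by 0 to 3 genes per list. Over all genes tested, 1.15% rose in that comparison and 11.1% had an unadjusted p under 0.05.

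**Figure D5:**
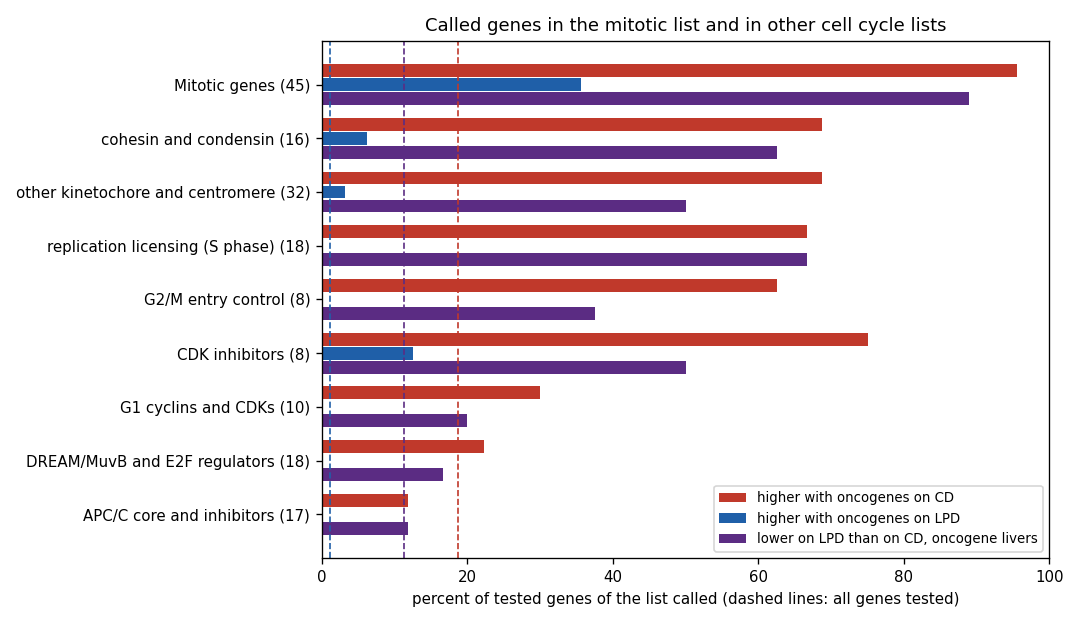
Percent of the tested genes of each list (number tested in brackets) that were called higher with c-MET/β-catenin on CD (red), higher on LPD (blue) and lower on LPD than on CD in c-MET/β-catenin livers (purple), with the percent over all genes tested as dashed lines at 18.7%, 1.15% and 11.3%. The mitotic genes have the longest bar of each colour, and the APC/C list lies near or under the dashed lines.

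Markers of other liver cell types moved in part with the mitotic genes. Over all genes tested, 18.7% rose and 16.7% fell on CD, and in c-MET/β-catenin livers 11.3% were lower and 8.66% higher on LPD than on CD. Of 8 macrophage markers, 3 rose on CD and 2 were lower on LPD. Their summed level was 113 to 253 CPM in CD Vec, 243 to 394 in CD c-MET/β-catenin, 174.5 to 216 in LPD Vec and 233 to 412 in LPD c-MET/β-catenin, and LPD c-MET/β-catenin mouse 3, with the lowest mitotic sum of the oncogene mice, had the highest value.

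Of 8 stellate cell markers, 4 rose and 2 fell on CD, and 4 were lower and 2 higher on LPD. Their sums were 607, 495 and 154 CPM in CD c-MET/β-catenin mice 1, 2 and 3 and 163 to 260 CPM in the other 9. CD c-MET/β-catenin mouse 3, with the highest mitotic sum of all mice, had the lowest stellate sum. Of 5 bile duct markers tested, Spp1 and Krt19 rose on CD (2.87 and 2.91, log2) and were lower on LPD, while Krt7 (0.33), Epcam (-0.50) and Sox9 (-0.41) did not pass on CD. Spp1, at 368, 280 and 111 CPM in CD c-MET/β-catenin, made up most of the summed 382, 292 and 121 CPM, and Krt19 was at 3.67, 6.57 and 7.04 CPM there.

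Of 3 neutrophil markers tested, 2 rose on CD and were lower on LPD (sums 3.57 to 5.42 CPM in CD Vec and 6.96 to 18.9 with the oncogenes), with Ly6g at 0 in 3 groups. Of 5 erythroid markers, 3 rose and 1 fell on CD and 3 were lower on LPD (sums 174 to 228 CPM in CD Vec and 76.7 to 270 with the oncogenes). Of 8 T and NK cell markers tested 2 rose and 1 fell on CD and none passed between the diets, and of 6 B and plasma cell markers none passed on CD and 2 were higher on LPD, with sums of 3.17 to 10.2 and 2.45 to 14.4 CPM. Of 7 endothelial markers 1 fell on CD and 2 were higher on LPD (102 to 223 CPM), and of 8 hepatocyte markers 2 fell on CD, and 2 were lower and 1 higher on LPD. The part of these cells in the mitotic levels was not tested.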

How the data were processed

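Liver RNA was sequenced in bulk from 3 mice in each of 4 groups. Per the labels and the study's methods, the authors aligned reads with HISAT2 to mm10 and counted them per Entrez gene with featureCounts. The deposited values are raw counts, with no normalisation. Versions, strand setting and the treatment of multiply mapped reads are not given in the sources used here. The labels name an rRNA depletion kit and the methods a stranded mRNA selection.

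Of 27179 IDs, 25275 were matched to symbols in RefSeq (GRCm38.p6), 18 in GENCODE only, and 1886 had none. Total counts were 19476209 to 31990267 per library. No replicate pair agreed within sampling noise. Genes were kept by filterByExpr (13947), scaled by TMM and tested in R 4.3.3 with edgeR 4.0.16 (glmQLFit, robust, and the quasi-likelihood F-test, 2-sided), all 12 libraries in 1 fit. P-values were adjusted by Benjamini-Hochberg over all genes tested, with a threshold of 0.05. SE was the fold change over the root of F. The common biological variation was 23.2%. In simulated data for 13803 genes, the steps recovered 93.5% of 200 genes changed 4-fold on CD, 94% for LPD against CD with the oncogenes and 80% for the interaction. The changed genes were drawn from those above a set mean count and began at the same level in all groups. These rates therefore do not cover genes with few reads in Vec.

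Alternatives were DESeq2 1.42.0, total counts only, no filter, 2 groups only, the replicate number as a block, the header run as a term, and each library left out. P-values weigh a difference against a spread between mice that was estimated over all 12 libraries and drawn towards that of other genes. Intervals on pooled counts are exact and cover counting error only. By the rule for named genes, all 45 entered every count, 21 fixed representatives of the roles were given by library, and the largest and smallest absolute log2 fold change of each comparison, the highest and lowest of each further list and the genes not called on CD were named; other values, Cdkn3 among them, were chosen after they were seen. The genes and lists were chosen with earlier results of these data known.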

Additional observations from a re-analysis of the deposited data

Results flagged for a closer look

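The oncogene fold change differed between the diets, by the interaction term of edgeR's quasi-likelihood test adjusted over all genes, for 6 of the mitotic genes, and in each it was smaller on LPD. Over all genes tested, 4.42% passed with a term below 0. The differences (log2) were -2.74 for Top2a, -2.47 for Kif4, -2.45 for Cdc20, -1.84 for Kif11 and -1.64 for Cenpa. That of -3.37 for Ndc80 rests on 1, 0 and 7 reads in CD Vec, and Ndc80 met the filter on low counts only through CD c-MET/β-catenin, the group in which it is high, so that 5 calls remain without it. None of the 6 passed with the header runs as a term in the model, where the count was 0. Only 1 of the 6, Cenpa, kept its call in every fit that left out 1 library, and the other 5 lost theirs in some.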

How the results depend on the processing

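On CD the count of 43 genes ran from 40 to 44 over all alternatives, and between the diets with the oncogenes the count of 40 ran from 28 to 43. For the oncogenes against Vec on LPD, the count of 16 became 33 by DESeq2, 5 with the header runs as a term and 8 with the replicate block, and 0 to 27 with single libraries left out. For the interaction the count of 6 became 19 by DESeq2, 10 with total counts only, 0 with the header runs and 3 with the replicate block, and 2 to 15 with single libraries left out. In Vec livers DESeq2 called 1 gene. The shares over all genes given above belong to the main fit, and none is given for these alternatives. Replicate numbers did not pair the mice: deviations of the 18 same-numbered pairs correlated from -0.183 to 0.167, 2 of them over 0.1, and 3 of 12 libraries were closest to their own number. The replicate block left 43 calls on CD and 38 for LPD against CD with the oncogenes.

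Signs turned only in genes that did not pass. Most turns were between the diets in Vec livers, many of them without CD Vec mouse 3. Mki67 was then 0.541, Cdk1 0.564 and Dlgap5 1.408. In the other comparisons the signs of 3 genes turned. Spc24 on CD was 0.315 with the header runs, 0.099 with total counts only and -0.505 to 0.020 with libraries left out. On LPD it was 0.038 with total counts only and -0.279 to 0.159 with libraries left out, and in the interaction -0.380 with the header runs, -0.061 with total counts only and -0.105 to 0.421 with libraries left out. In the interaction Ncapg was -0.394 with the header runs and -0.310 to 1.441 with libraries left out, and Spc25 then was -0.357 to 0.371. Spc25 for LPD against CD with the oncogenes was -0.516 to 0.083 with libraries left out. Scaling by total counts only moved the median of all genes on CD from -0.010 to 0.278, and that of the mitotic genes to 4.29. The causes of these shifts were not tested. For depth, 5 genes met the filter on low counts only with the CD c-MET/β-catenin libraries.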
